A study of Homo sapiens with 18 samples.

Results

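The enzymes that make, break down and draw on glutamine and glutamate were followed through 3 triple-negative breast cancer lines and their response to nicotinamide (NAM). The 9 genes are GLS2, GLUL, GLUD1, GOT1, GOT2, GPT2, GFPT1, OAT and PYCR1, found by symbol among 60676 Ensembl genes of the deposited table. All 9 were present, each under 1 Ensembl gene. Each line was measured as 3 libraries after 48 h in 20 mM NAM and 3 control libraries, 18 libraries in all. The NAM groups are BT20 with NAM, MDA-MB-231 with NAM and MDA-MB-468 with NAM, and their controls are untreated cells of the same line. The culture medium was RPMI for BT20 and DMEM for MDA-MB-231 and MDA-MB-468, so line and medium cannot be told apart in any contrast with BT20. Whether control RNA was taken before NAM or beside it at 48 h is not clear from the methods, and the groups may also differ by time in culture. Whether the replicates came from separate cultures was not stated, so p-values measure only the spread between these libraries.

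Glutamine is the main carrier of nitrogen between cells, and glutamate is the hub through which that nitrogen reaches other amino acids. Glutaminases release glutamate from glutamine and glutamine synthetase runs the opposite way, while glutamate dehydrogenase and the aminotransferases pass the carbon skeleton of glutamate into the citric acid cycle. Side branches lead to proline, to ornithine and, through the amide nitrogen of glutamine, to the amino sugars that decorate proteins. Many breast cancer lines of the triple-negative type take up glutamine avidly, and basal-like lines differ from luminal ones in how much of it they make themselves.

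Values are FPKM, the authors' reads per kilobase of gene and scaled to sequencing depth, and levels were compared between genes on this scale only. Fold changes are log2 differences of quantile-normalized FPKM + 1 from limma, given with their SE, and a gene is called where the Benjamini-Hochberg adjusted p over all genes tested is under 0.05. On this scale the change of a low gene is understated. The read totals that scaled the FPKM, recovered from its steps, ranged over libraries from 10864143 to 21755168. Recovered reads summed over all genes ranged from 11537002 to 23076577. All 5 breast epithelial marker genes were expressed in BT20 and MDA-MB-468, and 4 of them in the MDA-MB-231 line. Of the mesenchymal genes VIM, CDH2 and FN1, 2 were expressed in MDA-MB-231 and 1 in each other line. Their sum was 199 to 291 FPKM in MDA-MB-231, where VIM, a filament gene, had 189 to 285. It was 3.20 to 5.08 FPKM in BT20 and 3.73 to 27.1 in MDA-MB-468. Of 11 markers of fibroblasts, blood and vessel cells, 2 were expressed in BT20 and 1 in each other line, and of the receptor genes ESR1, PGR and ERBB2, 2 were expressed in BT20 and 1 in each other line, with PGR listed at 0 throughout. Replicate 1 stood apart from replicates 2 and 3 in both DMEM lines, in the NAM and the control arm alike. The deviations of the NAM and control replicate 1 from their group means correlated across genes at r = 0.749 in MDA-MB-231 and 0.707 in MDA-MB-468. Results that turn on these libraries are therefore given also without them, and where blocking on the replicate number changed a call in these lines, that value is given too.

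**Figure D1:**
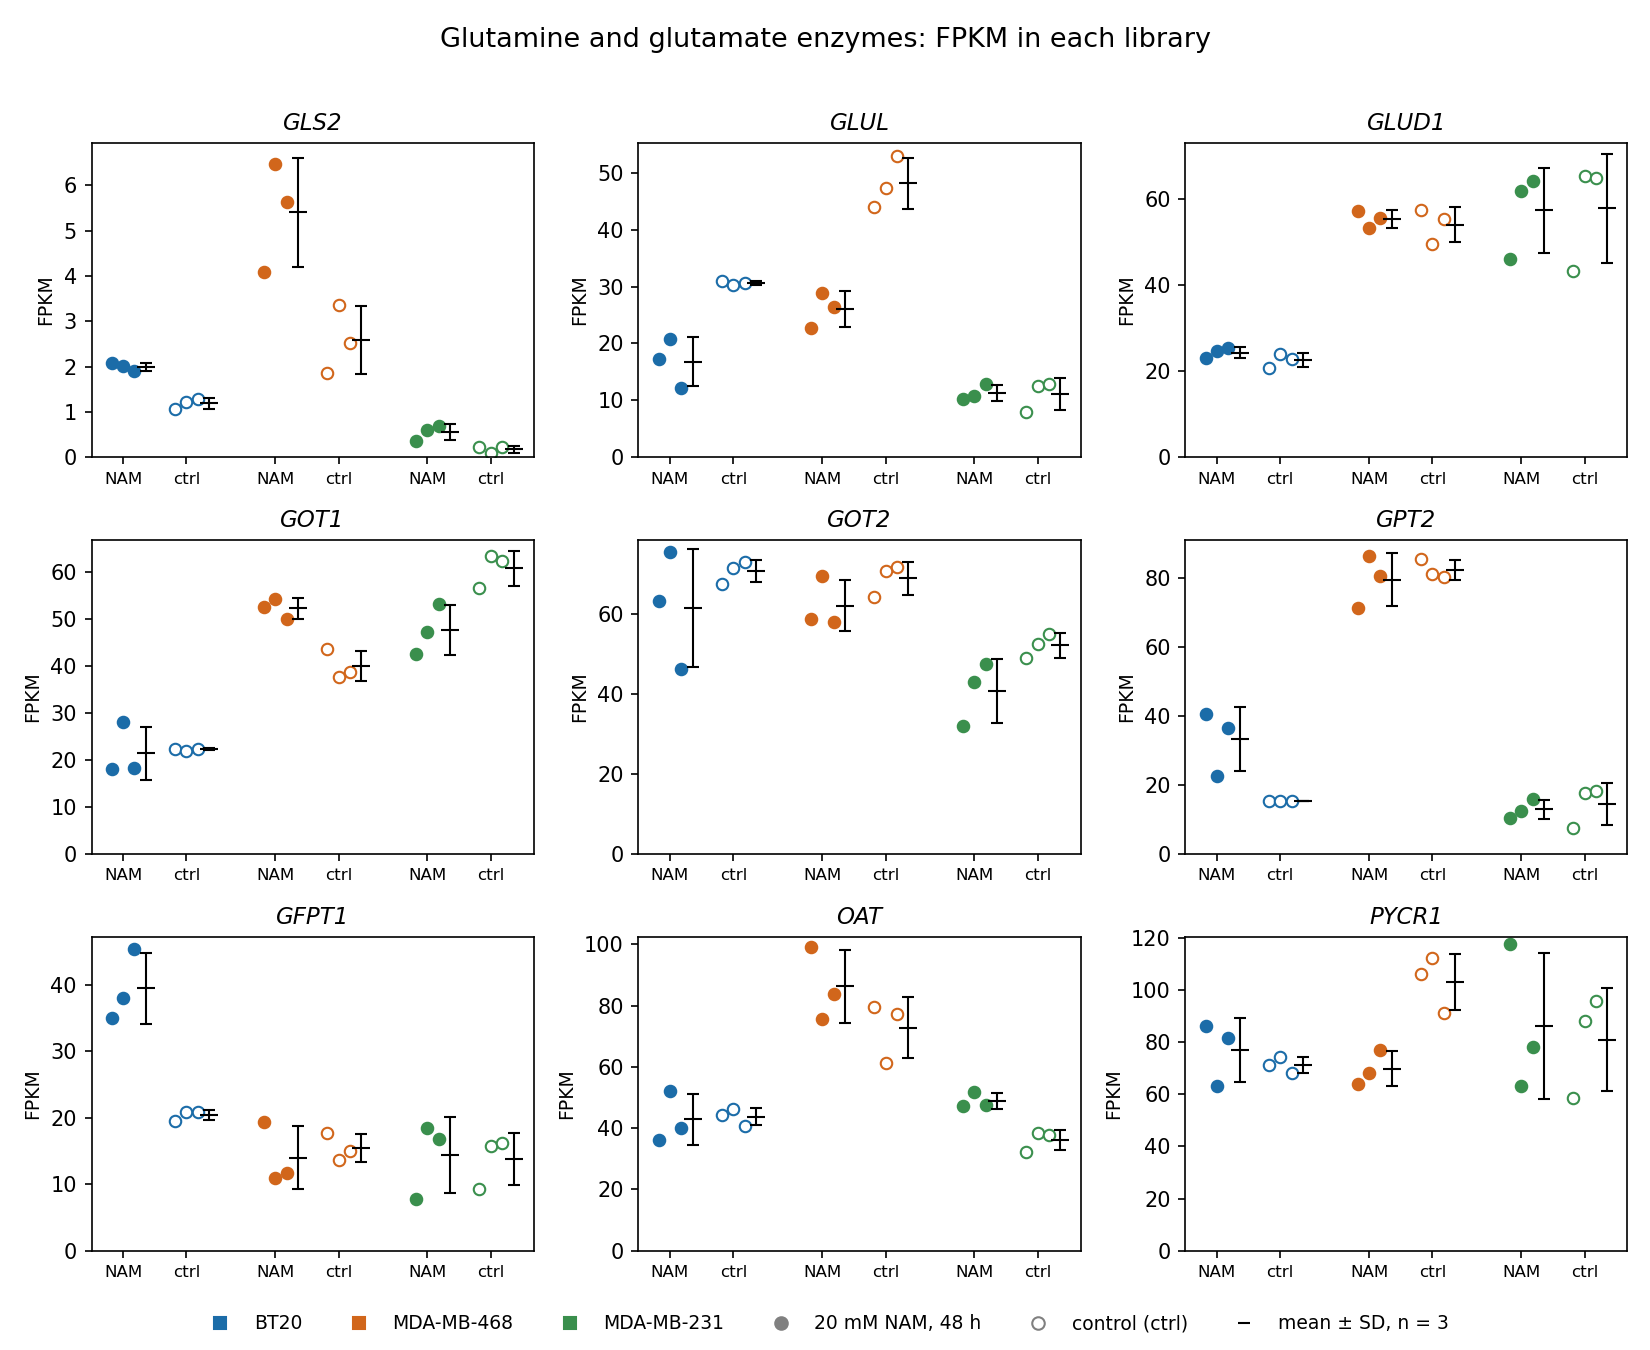
FPKM of the 9 enzymes in every library, with NAM (filled) to the left of control (open) in each line and the mean ± SD of 3 libraries beside the points. GLUL lay lower with NAM in BT20 and MDA-MB-468, GPT2 and GFPT1 lay higher with NAM in BT20, and GLS2 lay higher with NAM in every line.

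NAM was accompanied by a fall of GLUL in BT20 and MDA-MB-468, a rise of GPT2 and GFPT1 in BT20 and a fall of PYCR1 in MDA-MB-468. In BT20, 3 of the 9 enzymes were called, against a background of 16.7% of 14965 genes tested. The summed level of the 11 markers of other cell types ranged over 6.33 to 27.6 FPKM in BT20, with CDH5, a vessel marker, lower with NAM, and with DCN, PTPRC and CD3E under 0.05 FPKM. Their part in the result was not tested. In MDA-MB-468 the count was 2 of 9, both lower, against 8.99% of 14752 genes. In MDA-MB-231 none of the 8 tested enzymes was called by limma, against 1.92% of 13869 genes, none had an unadjusted p under 0.05, and limma-voom on the recovered reads called 0 too. The median log2 fold change of the enzymes was 0.14 in BT20, 0.00442 in MDA-MB-231 and -0.10 in MDA-MB-468, beside 0.02, -0.01 and 0.02 over all genes tested. With the replicate block, 1 enzyme was called in MDA-MB-231 (background 24.0%) and 4 were in MDA-MB-468 (background 29.7%). Each enzyme is taken in turn, from glutamine itself to the side branches.

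GLS2 encodes the liver-type glutaminase of mitochondria, which frees glutamate and ammonia from glutamine. It lies on the minus strand of chromosome 12 (GRCh38, chr12:56470944-56488414) and was the lowest of the 9 enzymes in every library. In BT20 it had 2.07, 2.02 and 1.90 FPKM with NAM, against 1.05, 1.21 and 1.29 in the controls. In MDA-MB-468 it had 4.09, 6.47 and 5.64 FPKM with NAM, against 1.85, 3.35 and 2.52 in the controls. In MDA-MB-231 it had 0.356, 0.601 and 0.692 FPKM with NAM, against 0.213, 0.0895 and 0.229 in the controls. All NAM libraries were thus above all controls of their line. The means were 1.996 ± 0.0871 against 1.19 ± 0.123 FPKM in BT20 and 5.40 ± 1.20 against 2.58 ± 0.749 FPKM in MDA-MB-468 (SD, n = 3 each). In MDA-MB-231, GLS2 stayed under the filter of 1 FPKM in 3 libraries and was not tested, and its values rest on 16 to 59 reads with NAM and 7 to 18 reads in the controls. No single line passed the test: the log2 fold change was 0.43 ± 0.14 (SE) in BT20 with an adjusted p of 0.0691 and 0.78 ± 0.25 in MDA-MB-468 with 0.0959. In MDA-MB-468 the replicate block gave the same fold change with an adjusted p of 0.00283, and without both replicate 1 libraries it was 0.78 with 0.0128. The fit of all 18 libraries (0.80, 0.0116) and no further normalization (0.84, 0.0486) also gave a call there. In BT20 GLS2 was called with a pseudocount of 0.1 (0.67, 0.0361), with no filter (0.42, 0.0427), with limma-voom (0.74, 0.0460) and without NAM replicate 1 (0.45, 0.0458). Averaged over the lines, GLS2 rose by 0.50 ± 0.11 on the log2 scale (adjusted p = 0.00337), with NAM above control in 3 of 3 lines. That call held in all 26 alternatives, with adjusted p from 0.000312 to 0.00937.

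The reading of GLS2 has a limit in its position. Of its exon bases, 82.78% also lie in exons of other genes on either strand, chiefly SPRYD4 on the opposite strand, and 5.65% are shared on its own strand. The strand setting of the counting was not given, and without strand, reads of GLS2 and SPRYD4 cannot be told apart there. SPRYD4 itself had 2.78, 3.64 and 2.36 FPKM with NAM and 2.39, 3.02 and 3.20 in the controls of BT20, with a log2 fold change of -0.03 (adjusted p = 0.920). For SPRYD4 in MDA-MB-468 the values were 2.81, 4.46 and 4.44 FPKM with NAM and 2.42, 3.24 and 3.32 in the controls, at 0.23 (adjusted p = 0.585). Its overlap of NAM and control in BT20 was unlike the separation of GLS2. In MDA-MB-468 the SPRYD4 groups overlapped too, but each NAM library was above the control of the same number, the direction of GLS2. The difference between the genes was not tested.

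GLUL encodes glutamine synthetase, the only enzyme that makes glutamine in human cells, from glutamate and ammonia. The gene is on the minus strand of chromosome 1 (chr1:182378098-182392206), and none of its exon bases is shared with another gene. Levels in BT20 were 17.3, 20.8 and 12.2 FPKM with NAM, against 30.9, 30.2 and 30.6 in the controls. Levels in MDA-MB-468 were 22.6, 28.9 and 26.5 FPKM with NAM, against 44.1, 47.4 and 53.0 in the controls. Levels in MDA-MB-231 were 10.2, 10.8 and 12.9 FPKM with NAM, against 7.90, 12.5 and 12.8 in the controls. The groups did not overlap in BT20 and MDA-MB-468, where the mean with NAM was 0.550 and 0.540 times that of the controls, and they overlapped in MDA-MB-231. GLUL fell by 0.83 ± 0.20 on the log2 scale in BT20 (adjusted p = 0.0258) and by 0.87 ± 0.15 in MDA-MB-468 (adjusted p = 0.0123). In MDA-MB-231 the log2 fold change was 0.01 ± 0.20 (adjusted p = 0.990). The call in BT20 was lost when control replicate 1, 2 or 3 or NAM replicate 3 was left out, with adjusted p from 0.0736 to 0.0890 and log2 fold changes from -0.84 to -0.63, and with no filter (0.0965). In MDA-MB-468 it was lost without control replicate 3 (0.0922) or NAM replicate 3 (0.0831), and the replicate block gave 0.00236. The average over the lines was a fall by 0.57 ± 0.10 (adjusted p = 0.000893), called in all 26 alternatives.

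The promoter window of GLUL is shown because this gene was called in more lines than any other of the 9. RefSeq (GRCh38.p14) gave windows of 250 bases before to 50 after an annotated start for 7 of the enzymes, 8 windows in all, and none for GPT2 and PYCR1. GLUL has a pair of them, and the one farther upstream, chr1:182391741-182392040 on the minus strand, reads as follows from 5′ to 3′, with capitals from the annotated start on.
GLUL: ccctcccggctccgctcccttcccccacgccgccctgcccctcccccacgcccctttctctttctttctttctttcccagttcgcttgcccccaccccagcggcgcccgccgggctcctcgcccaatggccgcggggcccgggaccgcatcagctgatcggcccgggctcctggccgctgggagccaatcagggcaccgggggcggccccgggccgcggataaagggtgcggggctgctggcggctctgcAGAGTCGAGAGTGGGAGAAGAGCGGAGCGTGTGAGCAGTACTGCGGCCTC
It has 72.7% G and C and 29 CpG pairs, against medians of 58.7% and 14 over 35116 promoter windows.

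GLUD1 encodes glutamate dehydrogenase 1, the mitochondrial enzyme that turns glutamate into 2-oxoglutarate. It lies on the minus strand of chromosome 10 (chr10:87050202-87094843). For BT20 the values were 23.0, 24.6 and 25.5 FPKM with NAM, against 20.8, 24.0 and 22.8 in the controls. For MDA-MB-468 the values were 57.4, 53.3 and 55.8 FPKM with NAM, against 57.5, 49.5 and 55.4 in the controls. For MDA-MB-231 the values were 46.1, 61.9 and 64.4 FPKM with NAM, against 43.2, 65.6 and 65.0 in the controls. NAM and control overlapped in every line, and replicate 1 was the low library of both MDA-MB-231 groups. The log2 fold changes were 0.14 ± 0.15 in BT20, 0.02 ± 0.30 in MDA-MB-231 and 0.05 ± 0.15 in MDA-MB-468, with adjusted p from 0.543 to 0.981. The 95% intervals reached 0.33, 0.72 and 0.34 to either side of these estimates. Near-identical copies were low, with 0 to 1.11 FPKM for GLUD2, 0 to 1.72 for GLUD1P2 and 0.912 to 3.65 for GLUD1P3, and reads shared with them would be assigned uncertainly.

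GOT1 and GOT2 encode the cytosolic and mitochondrial aspartate aminotransferases, which trade the amino group of glutamate for aspartate and form the arms of the malate-aspartate shuttle. GOT1 lies at chr10:99396870-99430624 and GOT2 at chr16:58707131-58734342, both on the minus strand. GOT1 in BT20 had 18.1, 28.0 and 18.4 FPKM with NAM, against 22.4, 22.0 and 22.3 in the controls. In MDA-MB-468 GOT1 had 52.5, 54.4 and 49.99 FPKM with NAM, against 43.6, 37.6 and 38.7 in the controls. In MDA-MB-231 GOT1 had 42.6, 47.2 and 53.1 FPKM with NAM, against 56.6, 63.4 and 62.5 in the controls. The groups did not overlap in MDA-MB-468, where NAM was above, or in MDA-MB-231, where NAM was below, and in BT20 the NAM libraries spread to both sides of the controls. None of these passed the test: the log2 fold changes were -0.05 ± 0.19 in BT20 (adjusted p = 0.883), -0.34 ± 0.21 in MDA-MB-231 (0.424) and 0.39 ± 0.15 in MDA-MB-468 (0.164). With the replicate block GOT1 was called in MDA-MB-468 (0.39, adjusted p = 0.0385) but not in MDA-MB-231 (-0.34, adjusted p = 0.0727). The NAM effect in MDA-MB-231 minus that in MDA-MB-468 was -0.71 ± 0.25 (adjusted p = 0.147, and 0.0499 with the block).

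GOT2 was more even than GOT1. In BT20 it had 63.2, 75.6 and 46.2 FPKM with NAM, against 67.7, 71.6 and 73.2 in the controls. In MDA-MB-468 it had 58.8, 69.6 and 58.2 FPKM with NAM, against 64.3, 70.9 and 71.9 in the controls. In MDA-MB-231 it had 32.0, 42.9 and 47.5 FPKM with NAM, against 49.0, 52.7 and 55.1 in the controls. Only in MDA-MB-231 did the NAM libraries all lie under the controls. The log2 fold changes were -0.19 ± 0.19, -0.15 ± 0.15 and -0.33 ± 0.23 (adjusted p = 0.526, 0.596 and 0.483), and the average over lines was -0.22 ± 0.11 (adjusted p = 0.153). That average passed under median scaling, with an adjusted p of 0.0327, and under no other of 26 alternatives. The processed copies GOT2P1 and GOT2P2 were listed at 0 in all libraries, and GOT2P3 had at most 0.0554 FPKM.

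A promoter search was limited to the amino acid response motif TGATGNAA, a site of ATF4 with C/EBP proteins, and the E-box CACGTG, a site of MYC with MAX, each on both strands with no overlap between them. GOT1 held the response motif, as 1 of the 8 member windows, against 3.62% of all windows, and none of the 8 held the E-box, against 7.26%. A match is a string of letters only and carries no binding. The GOT1 window, chr10:99430575-99430874 on the minus strand, is shown for this match, with capitals at its bases 53 to 60, the motif in its reverse orientation 198 bases before the annotated start.
GOT1: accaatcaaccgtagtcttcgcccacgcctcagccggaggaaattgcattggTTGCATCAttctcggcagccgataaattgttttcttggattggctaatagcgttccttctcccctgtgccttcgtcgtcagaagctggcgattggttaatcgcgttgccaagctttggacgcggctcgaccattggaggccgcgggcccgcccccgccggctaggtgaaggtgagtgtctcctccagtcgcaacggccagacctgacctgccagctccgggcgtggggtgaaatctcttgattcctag
Its G and C share was 58.0%, the lowest of the 8 windows.

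GPT2 encodes the mitochondrial alanine aminotransferase, which moves the amino group of glutamate onto pyruvate. The gene is on the plus strand of chromosome 16 (chr16:46884362-46931289), with no exon bases shared. The BT20 libraries had 40.7, 22.8 and 36.6 FPKM with NAM, against 15.5, 15.4 and 15.3 in the controls. The MDA-MB-468 libraries had 71.3, 86.5 and 80.7 FPKM with NAM, against 85.6, 81.2 and 80.5 in the controls. The MDA-MB-231 libraries had 10.4, 12.3 and 15.9 FPKM with NAM, against 7.56, 17.6 and 18.4 in the controls. Only in BT20 were the groups apart, with NAM replicate 2 nearest to the controls. The mean there was 33.4 ± 9.41 FPKM with NAM against 15.4 ± 0.0871 in the controls, a ratio of 2.17. GPT2 rose by 1.06 ± 0.22 on the log2 scale in BT20 (adjusted p = 0.0148). The call was lost without control replicate 1 (0.0543), control replicate 2 (0.0531) or NAM replicate 3 (0.0714), and with no filter (0.0777). The log2 fold change was -0.13 ± 0.32 in MDA-MB-231 (adjusted p = 0.863) and -0.10 ± 0.14 in MDA-MB-468 (0.737). GPT, the cytosolic relative, had at most 0.831 FPKM in any library.

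GPT2 was the single enzyme whose NAM effect passed the test of a difference between the lines. The line-by-NAM interaction, an F test over the 18 libraries, gave an adjusted p of 0.0404, against a background of 9.36% of 17784 genes called. The effect in MDA-MB-231 minus that in BT20 was -1.24 ± 0.35 on the log2 scale (adjusted p = 0.0482), and the effect in MDA-MB-468 minus that in BT20 was -1.20 ± 0.35 (adjusted p = 0.0553). The call of MDA-MB-231 minus BT20 was lost in 21 of 26 alternatives, with adjusted p up to 0.137. These pairwise differences had backgrounds of 5.34% and 5.43% of genes, and the difference of MDA-MB-231 minus MDA-MB-468 had 4.86%. The interaction call was lost in 20 of 26 alternatives. Of the 18 cases that leave out 1 library it held only without BT20 NAM replicate 2 (0.00939), MDA-MB-231 control replicate 1 (0.00327) or MDA-MB-231 NAM replicate 3 (0.0439), and without any other library the adjusted p was up to 0.113. GLUL had an interaction adjusted p of 0.0508, and passed without BT20 NAM replicate 2 (0.0175) or 3 (0.0415). With the replicate block, which paired the BT20 libraries by number too, the interaction was called for 3 enzymes (background 22.0%). They were GFPT1 (adjusted p = 0.00360), GPT2 (0.0147) and GLUL (0.0318). Without the 4 replicate 1 libraries of the DMEM lines it was called for GFPT1 (0.000915) and GPT2 (0.0102), and GLUL had an adjusted p of 0.142.

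GFPT1 encodes glutamine-fructose-6-phosphate transaminase 1, which spends the amide nitrogen of glutamine on the first step of amino sugar synthesis. It lies on the minus strand of chromosome 2 (chr2:69319780-69387250), with no exon bases shared. Levels in BT20 were 35.1, 38.0 and 45.4 FPKM with NAM, against 19.5, 20.8 and 20.9 in the controls. Levels in MDA-MB-468 were 19.4, 10.9 and 11.7 FPKM with NAM, against 17.7, 13.7 and 15.0 in the controls. Levels in MDA-MB-231 were 7.81, 18.4 and 16.8 FPKM with NAM, against 9.30, 15.8 and 16.2 in the controls. BT20 was the line with separate groups, and in both other lines the replicate 1 libraries were at one end of both groups. GFPT1 rose by 0.96 ± 0.16 on the log2 scale in BT20 (adjusted p = 0.00691), and this call held in all 14 alternatives with adjusted p from 0.00340 to 0.0398. The log2 fold change was 0.00198 ± 0.32 in MDA-MB-231 (adjusted p = 0.999) and -0.17 ± 0.23 in MDA-MB-468 (0.709). The interaction had an adjusted p of 0.0796 and fell under 0.05 when NAM replicate 1 of MDA-MB-468 (0.0270), control replicate 1 of MDA-MB-231 (0.0429) or NAM replicate 1 of MDA-MB-231 (0.0464) was left out.

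The GFPT1 promoter window, chr2:69387178-69387477 on the minus strand, is shown because its BT20 call was the one that no alternative removed. Capitals run from the annotated start on.
GFPT1: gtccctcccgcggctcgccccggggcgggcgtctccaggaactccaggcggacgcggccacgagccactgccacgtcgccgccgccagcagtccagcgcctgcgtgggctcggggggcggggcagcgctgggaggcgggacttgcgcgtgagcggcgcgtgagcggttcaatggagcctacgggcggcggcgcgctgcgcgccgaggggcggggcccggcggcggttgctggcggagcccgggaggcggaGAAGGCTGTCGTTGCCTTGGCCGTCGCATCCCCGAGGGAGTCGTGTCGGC
It holds 78.0% G and C and 47 CpG pairs.

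GFPT2, the second gene for this step, had another distribution over the lines. It had 0.277, 0.166 and 0.401 FPKM with NAM and 0.181, 0.162 and 0.0652 in the controls of BT20, too low to be tested. For MDA-MB-468 the values were 3.89, 3.78 and 3.72 FPKM with NAM, against 1.39, 1.75 and 1.37 in the controls, and GFPT2 rose by 0.87 ± 0.16 (adjusted p = 0.0133). Leaving out control replicate 3, NAM replicate 2 or NAM replicate 3 ended that call, with adjusted p up to 0.106. For MDA-MB-231 the values were 54.6, 63.7 and 70.3 FPKM with NAM, against 31.8, 38.9 and 41.5 in the controls. There the groups were apart, the log2 fold change was 0.75 ± 0.24 and the adjusted p was 0.148. BT20, the line in which GFPT1 rose, was thus the one with under 0.5 FPKM of GFPT2.

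OAT encodes ornithine aminotransferase, a mitochondrial enzyme that joins ornithine to glutamate and proline. The gene is on the minus strand of chromosome 10 (chr10:124397303-124418976). In BT20 it had 36.2, 52.1 and 40.2 FPKM with NAM, against 44.3, 46.2 and 40.8 in the controls. In MDA-MB-468 it had 99.2, 75.7 and 83.8 FPKM with NAM, against 79.5, 61.3 and 77.4 in the controls. In MDA-MB-231 it had 47.2, 51.7 and 47.4 FPKM with NAM, against 32.3, 38.3 and 37.7 in the controls. MDA-MB-231 was the line without overlap, and its log2 fold change of 0.43 ± 0.19 had an adjusted p of 0.275. With the replicate block OAT rose there at an adjusted p of 0.0396, and without both replicate 1 libraries it was 0.40 with 0.0406. The log2 fold changes were 0.02 ± 0.17 in BT20 and 0.21 ± 0.19 in MDA-MB-468 (adjusted p = 0.938 and 0.571). Averaged over the lines it was 0.21 ± 0.10 (adjusted p = 0.135), called with the block (0.0290).

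PYCR1 encodes the mitochondrial pyrroline-5-carboxylate reductase that completes proline synthesis. It lies on the minus strand of chromosome 17 (chr17:81932384-81942412), and 14.1% of its exon bases are shared on that strand with MYADML2, which had at most 0.515 FPKM. On either strand 29.7% are shared, with a further gene that has no symbol, and the strand setting of the counting was not given. The BT20 libraries had 86.3, 63.2 and 81.8 FPKM with NAM, against 71.4, 74.4 and 68.3 in the controls. The MDA-MB-468 libraries had 64.0, 68.2 and 77.1 FPKM with NAM, against 106, 112 and 91.3 in the controls. The MDA-MB-231 libraries had 118, 63.2 and 78.1 FPKM with NAM, against 58.8, 88.3 and 96.1 in the controls. Only the MDA-MB-468 groups were apart, and in MDA-MB-231 replicate 1 was the highest library with NAM and the lowest in the controls. PYCR1 fell by 0.59 ± 0.15 on the log2 scale in MDA-MB-468 (adjusted p = 0.0436). This call was lost whichever of the 6 libraries was left out, control replicates 1 to 3 and NAM replicates 1 to 3, with adjusted p from 0.0619 to 0.176. A pseudocount of 0.1 (0.0679), no further normalization (0.0659), median scaling (0.0727), limma-voom (0.0664) and the fit of all 18 libraries (0.0967) ended it too, so that 11 of 15 alternatives did. It held with the replicate block (0.0112) and without both replicate 1 libraries (0.0289). In BT20 and MDA-MB-231 the log2 fold changes were 0.16 ± 0.17 and 0.05 ± 0.28 (adjusted p = 0.536 and 0.950).

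**Figure D2:**
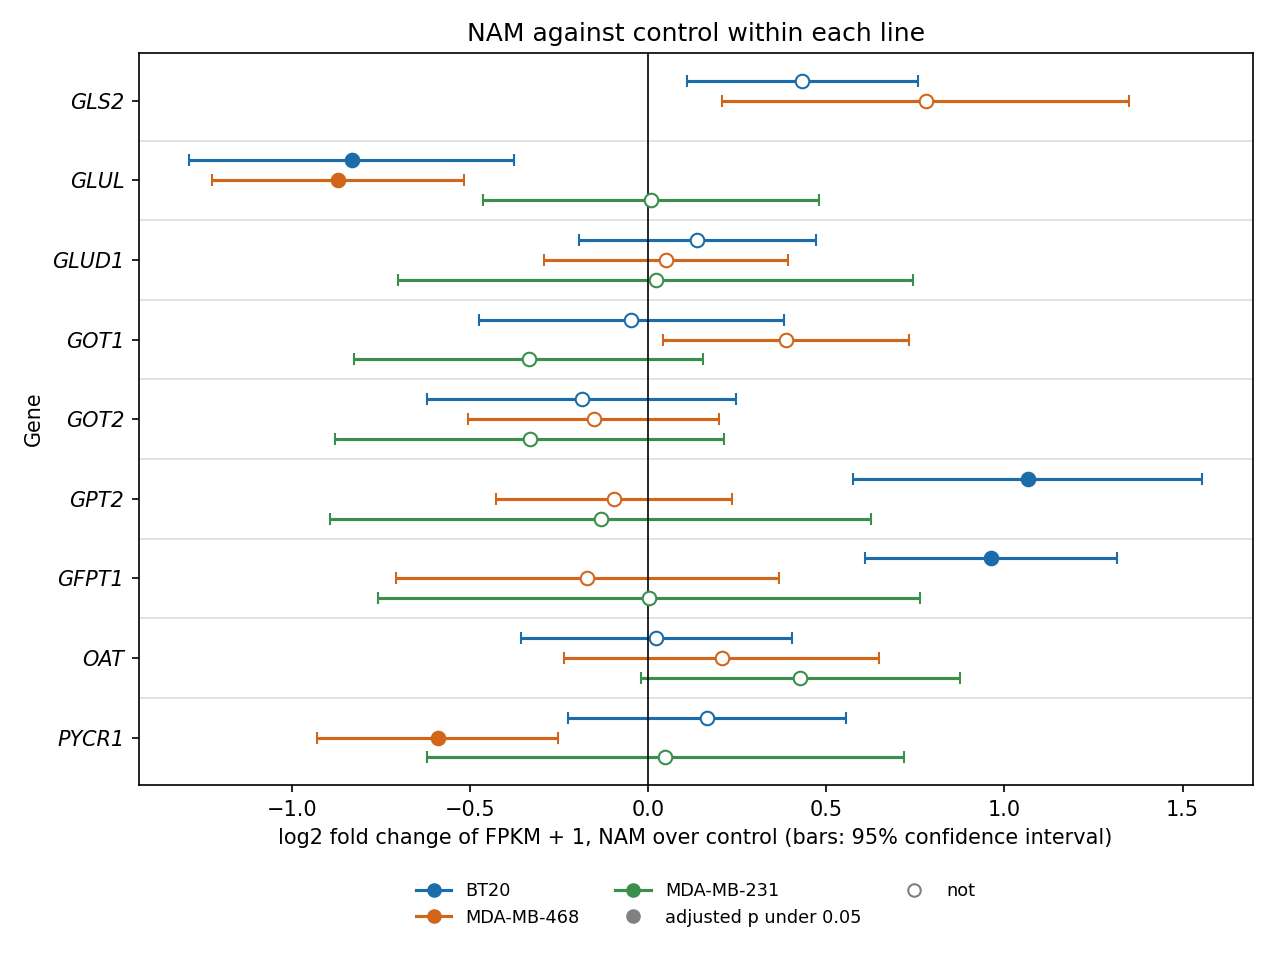
Log2 fold change of FPKM + 1, NAM over control, for each enzyme and line, with 95% confidence intervals from limma and filled points at an adjusted p under 0.05. GLUL was at -0.83 in BT20 and -0.87 in MDA-MB-468, and GPT2 and GFPT1 were at 1.06 and 0.96 in BT20. GLS2 was not tested in MDA-MB-231.

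The groups were apart in more cases than were called. Among the enzymes tested, NAM lay above control in 3 in BT20, 1 in MDA-MB-231 and 2 in MDA-MB-468, against backgrounds of 21.0%, 17.3% and 16.2% of genes. NAM lay below control in 1, 2 and 2 enzymes, against 18.3%, 10.4% and 13.4%. An exact two-sided permutation test of 3 libraries against 3 cannot go below 0.1 for a single gene.

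Averaged over the 3 lines, 2 of the 9 enzymes were called, GLS2 higher and GLUL lower, a glutaminase and the glutamine synthetase. GLS2 was the lowest of the 9 in every library, so its rise does not stand for glutamine breakdown as a whole. The background was 27.4% of genes called, 13.3% higher and 14.1% lower, so a count of 2 is close to it. With the replicate block, here also over BT20, 4 were called (background 41.6%), with GFPT1 (0.28, adjusted p = 0.0134) and OAT added. Without the 4 replicate 1 libraries of the DMEM lines the average of GFPT1 was 0.25 (adjusted p = 0.0182, background 36.2%). Without MDA-MB-231 NAM replicate 1 the average of GFPT1 was 0.37 (adjusted p = 0.0355), and without BT20 NAM replicate 2 that of GPT2 was 0.38 (adjusted p = 0.0369). In BT20 and MDA-MB-468 the NAM libraries lay above the controls for GLS2 and below them for GLUL, and in MDA-MB-231 GLUL had overlapping groups while GLS2 did not.

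The control libraries of the lines held these enzymes at different levels. In the MDA-MB-468 controls 6 of the 9 enzymes were higher than in the BT20 controls and none was lower, against a background of 55.3% called, 26.7% of genes higher and 28.6% lower. The number called in either direction is close to the background. The median log2 fold change of the 9 enzymes was 0.67, against -0.02 over all 16449 genes tested. The highest of these was GPT2, which averaged 82.4 ± 2.79 FPKM in MDA-MB-468 and 15.4 ± 0.0871 in BT20 (SD, n = 3 each), a log2 difference of 2.34 ± 0.24 (adjusted p = 3.8e-05). GLUD1 averaged 54.1 ± 4.14 FPKM in MDA-MB-468 and 22.5 ± 1.64 in BT20, a difference of 1.20 ± 0.20 (adjusted p = 0.000799). GLS2 (0.84), GOT1 (0.81), OAT (0.67) and GLUL (0.61) were the others called. The call of GLS2 was lost without BT20 control replicate 1 (0.0674), 2 (0.0651) or 3 (0.0523). GOT2 (-0.13), GFPT1 (-0.37) and PYCR1 (0.43) were not called. Leaving out control replicate 1 of MDA-MB-231, which is in neither group, brought GFPT1 to an adjusted p of 0.0218 and PYCR1 to 0.0106.

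MDA-MB-231 controls differed from both other lines in mixed directions. Against BT20, 5 of the 9 enzymes were called, 2 higher and 3 lower, and the background was 59.0%, with 30.4% higher and 28.6% lower. The number called is thus close to the background. GOT1 averaged 60.8 ± 3.66 FPKM in the MDA-MB-231 controls and 22.3 ± 0.215 in those of BT20, a log2 difference of 1.43 ± 0.13 (adjusted p = 1.36e-05). GLUD1 was higher by 1.32 ± 0.20 (adjusted p = 0.000396). GLUL averaged 11.1 ± 2.76 FPKM in the MDA-MB-231 controls and 30.6 ± 0.363 in those of BT20, a difference of -1.36 ± 0.15 (adjusted p = 4.72e-05). GOT2 (-0.49, adjusted p = 0.0105) and GFPT1 (-0.49, adjusted p = 0.0408) were the other lower enzymes. GOT2 lost its call without BT20 control replicate 3 (0.0532) and with median scaling (-0.23, 0.117). GFPT1 lost it without BT20 control replicate 1 (0.0684), 2 (0.101) or 3 (0.111), MDA-MB-468 control replicate 3 (0.0571) or MDA-MB-231 control replicate 1 (0.109, at -0.26), and with a pseudocount of 0.1 (0.0556), median scaling (0.0823), no filter (0.0722) or the fit of all 18 libraries (0.116). Scaling mattered here, since the median of all genes in this contrast was 0.05 after quantile normalization, -0.13 without it and 0.07 after median scaling.

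GPT2 in this contrast hung on 1 library. Its log2 difference was -0.08 ± 0.24 (adjusted p = 0.812) with all controls, and 0.27 (adjusted p = 0.0448) without MDA-MB-231 control replicate 1, which had 7.56 FPKM against 17.6 and 18.4 in the others. PYCR1 likewise was 0.09 ± 0.22 (adjusted p = 0.733) with all controls and 0.36 (0.0318) without that library. GLS2, under 1 FPKM in MDA-MB-231, was -0.39 ± 0.19 (adjusted p = 0.116), a value that 7 of 18 alternatives turned into a call. These were a pseudocount of 0.1 (-0.93, adjusted p = 0.0273), no further normalization (-0.89, 0.00102), median scaling (-0.69, 0.00959), no filter (-0.67, 0.0303), limma-voom (-1.69, 0.00563), the fit of all 18 libraries (-0.51, 0.0335) and leaving out BT20 control replicate 1 (-0.65, 0.0485). The MDA-MB-231 controls averaged 0.177 ± 0.0765 FPKM, against 1.19 ± 0.123 FPKM in those of BT20.

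Against the MDA-MB-468 controls, the MDA-MB-231 controls were lower in 5 enzymes and higher in 1, with a background of 55.7% called, 26.5% lower and 29.3% higher. Here too the number called is close to the background. GPT2 was lower at -2.41 ± 0.24 (adjusted p = 2.74e-05). GLUL was at -1.97 ± 0.15 (adjusted p = 4.13e-06) and OAT at -0.94 ± 0.15 (adjusted p = 0.000583). GLS2 was at -1.23 ± 0.19 (adjusted p = 0.000562), a low gene whose fold is understated at a pseudocount of 1, with -2.26 at a pseudocount of 0.1 and -2.96 with limma-voom. GOT1 was the enzyme that was higher, by 0.62 ± 0.13 (adjusted p = 0.00325). GOT2 was lower at -0.36 ± 0.13 (adjusted p = 0.0422), a call lost in 7 of the 9 cases that leave out 1 control, all but BT20 replicate 1 and MDA-MB-468 replicate 1, with adjusted p up to 0.127, and also with a pseudocount of 0.1 (0.0690), median scaling (0.0912) or the fit of all 18 libraries (0.125). GLUD1 was not called (0.12, adjusted p = 0.651) but passed without MDA-MB-231 control replicate 1 (0.38, adjusted p = 0.0294). The 3 line contrasts share their control libraries and are not independent of one another.

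**Figure D3:**
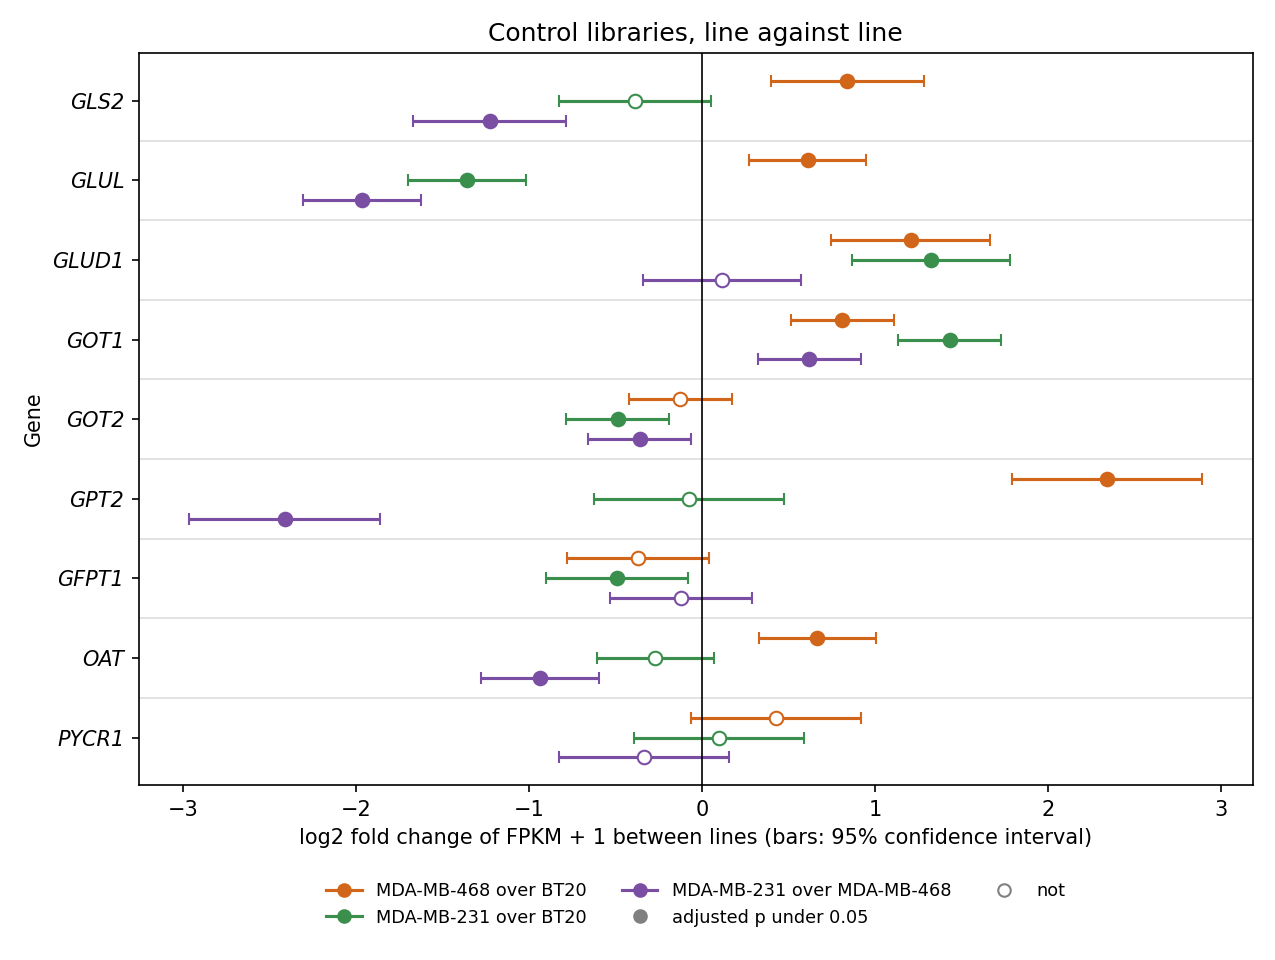
Log2 fold change of FPKM + 1 between the control libraries of pairs of lines, for each enzyme, with 95% confidence intervals from limma and filled points at an adjusted p under 0.05. GPT2 stood at 2.34 in MDA-MB-468 over BT20 and at -2.41 in MDA-MB-231 over MDA-MB-468, and GOT1 was above 0 in all 3 contrasts.

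The order of the control levels differed from enzyme to enzyme. For GLS2, GLUL, GPT2 and OAT the MDA-MB-468 controls came highest, and their neighbours BT20 and MDA-MB-231 were not separated by the test in GPT2 and OAT, nor in GLS2, where 7 of 18 alternatives separated them. For GOT1 the order was MDA-MB-231, MDA-MB-468, BT20, with every step called. For GLUD1, MDA-MB-231 and MDA-MB-468 were not separated and both were above BT20. For GOT2, BT20 and MDA-MB-468 were not separated and MDA-MB-231 was below both. GFPT1 was higher in BT20 than in MDA-MB-231 and MDA-MB-468 was separated from neither. PYCR1, with 71.4 ± 3.06 FPKM in BT20, 81.0 ± 19.7 in MDA-MB-231 and 103 ± 10.8 in MDA-MB-468, was not called in any contrast. With NAM, GFPT1 reached 39.5 ± 5.33 FPKM in BT20 with NAM, above every group of the other lines.

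The genes whose log2(FPKM + 1) ran most like each enzyme over the 18 libraries were listed from 15106 genes with a symbol, as a description in which the points share lines and depth. They were SPRY3 (r = 0.978) and SLC9B2 (0.965) for GLS2, PALMD (0.956) and C1orf116 (0.955) for GLUL, and ARSJ (0.994) and MCOLN2 (0.984) for GLUD1. For the aminotransferases they were DNAJC9 (0.981) and GLA (0.965) with GOT1, RCL1 (0.930) and IFT122 (0.919) with GOT2, and FAHD2A (0.960) and CSNK2A2 (0.959) with GPT2. TCEA1 (0.967) and WASL (0.964) ran with GFPT1, and LXN (0.953) and CCNG1 (0.949) with OAT. PYCR1 had the weakest partners, TAGLN at 0.744 and GTF2IRD1 at 0.727.

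The wider pathway was read from 67 other genes, chosen with earlier results of these data known. With NAM, 8 of the 44 tested in BT20 rose and 5 fell, 1 of 43 rose and none fell in MDA-MB-231, and 5 of 43 rose and 2 fell in MDA-MB-468. The backgrounds of genes higher and lower were 8.16% and 8.51% in BT20, 0.829% and 1.09% in MDA-MB-231, and 3.56% and 5.43% in MDA-MB-468. With the replicate block the counts were 7 risen and 7 fallen in MDA-MB-231 and 14 and 5 in MDA-MB-468, against the block's own backgrounds given above. Without both replicate 1 libraries they were 9 and 6 in MDA-MB-231 (background 29.2%) and 9 and 4 in MDA-MB-468 (background 22.5%).

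Transporters of glutamine, glutamate and cystine made up 5 of the 8 that rose in BT20, of 12 tested, and their median log2 fold change was 0.59 there, -0.02 in MDA-MB-231 and 0.12 in MDA-MB-468. SLC7A11, which brings in cystine in exchange for glutamate, had 10.5, 12.2 and 14.4 FPKM with NAM in BT20, against 2.36, 2.91 and 3.04 in the controls (log2 fold change 1.80, adjusted p = 0.00137). SLC38A2, a sodium-coupled glutamine carrier, had 38.1, 42.7 and 48.6 FPKM with NAM in BT20, against 16.4, 16.5 and 16.5 in the controls (1.37, adjusted p = 0.00248). Both separated cleanly from their controls and were called in all 14 alternatives. SLC7A5, a carrier that exports glutamine for other amino acids, rose by 1.26 (adjusted p = 0.0382), with NAM replicate 2 at 124 FPKM against 322 and 278 in the other NAM libraries. That call did not hold once control replicate 1, 2 or 3 or NAM replicate 1 or 3 was left out, with adjusted p up to 0.184 over all alternatives. It was also lost with a pseudocount of 0.1 and with no filter. SLC1A4, a neutral amino acid carrier, rose in BT20 (1.17, adjusted p = 0.00530) and in MDA-MB-468 (0.93, adjusted p = 0.00983). In MDA-MB-468, SLC1A1, a glutamate carrier, rose by 0.72 (adjusted p = 0.0183), while SLC1A6 had 18.4, 18.8 and 19.6 FPKM with NAM, against 70.2, 57.0 and 49.0 in the controls, and fell by 1.57 (adjusted p = 0.00156). The MDA-MB-468 calls of SLC1A1 and SLC1A4 were lost without control replicate 3, NAM replicate 2 or NAM replicate 3, and that of SLC1A1 also without control replicate 2, with adjusted p up to 0.112. SLC38A1, another glutamine carrier, rose in BT20 by 0.98 (adjusted p = 0.0111), a call lost with no filter and in the fit of all 18 libraries, with adjusted p up to 0.101.

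Of the glutathione and gamma-glutamyl genes, 2 rose and 2 fell among 9 tested in BT20, and 1 rose and 1 fell among 8 in MDA-MB-468. CHAC1, which degrades glutathione, had 29.5, 26.5 and 27.3 FPKM with NAM in BT20, against 5.01, 5.19 and 3.54 in the controls (log2 fold change 2.37, adjusted p = 0.000601). In MDA-MB-468 it rose by 0.74 (adjusted p = 0.0474), a call that needed each of control replicates 2 and 3 and NAM replicates 2 and 3, with adjusted p up to 0.222 over all alternatives. A pseudocount of 0.1, no further normalization, median scaling, no filter and limma-voom ended it too, so that 9 of 15 alternatives did. In MDA-MB-231 the log2 fold change of CHAC1 was 1.17 and was not called (adjusted p = 0.0831). GGT6, of the gamma-glutamyltransferase family, fell by 0.90 in BT20 (adjusted p = 0.0126) and by 1.03 in MDA-MB-468 (adjusted p = 0.0192). Its call did not hold once control replicate 2 or 3 or NAM replicate 3 was left out in either line, and in MDA-MB-468 also without NAM replicate 2 or with no filter, with adjusted p up to 0.117. GCLM, the modifier subunit of the ligase that starts glutathione synthesis, rose by 0.82 in BT20 (adjusted p = 0.00911, and 0.0571 at most without control replicate 2 or 3). OPLAH, the 5-oxoprolinase that returns glutamate from the gamma-glutamyl cycle, fell by 1.32 in BT20 (adjusted p = 0.00427).

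Among the other aminotransferases that use glutamate, PSAT1, the serine-pathway aminotransferase, had 193, 213 and 213 FPKM with NAM in BT20, against 43.0, 49.1 and 47.6 in the controls. It rose by 2.21 ± 0.16 (adjusted p = 0.000601), called in all 14 alternatives. ABAT, which breaks down GABA, fell by 0.71 in BT20 (adjusted p = 0.0193), a call lost without any single control replicate or NAM replicate 3 (up to 0.0993). Of the enzymes that take the amide nitrogen of glutamine, PFAS of purine synthesis fell by 0.62 in BT20 (adjusted p = 0.0357, and up to 0.166 when control replicate 1, 2 or 3 or NAM replicate 2 or 3 was left out or in another setting). No other amidotransferase was called in a line beside GFPT2 in MDA-MB-468. Of the MDA-MB-231 tests, 4 of the 10 amidotransferases had an unadjusted p under 0.05, and the share of all genes at that threshold is not given here. They were GFPT2 (0.75) and NADSYN1 (0.70), higher, and CTPS1 (-0.92) and GMPS (-0.67), lower. With the replicate block 2 rose and 4 fell, against a background of 24.0% of genes called. Those that fell were CAD, PFAS, CTPS1 and GMPS of nucleotide synthesis. PYCR3, the cytosolic relative of PYCR1, had 7.32, 5.78 and 3.08 FPKM with NAM in BT20, against 17.9, 21.3 and 18.4 in the controls, and fell by 1.73 (adjusted p = 0.00582). That call was lost with no filter (0.0533).

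ALDH5A1, which feeds the GABA branch into the citric acid cycle, was the gene that rose in MDA-MB-231, with 4.23, 6.43 and 6.11 FPKM with NAM against 2.18, 2.38 and 2.34 in the controls (0.89, adjusted p = 0.0405). Its call did not hold once control replicate 1, 2 or 3 or NAM replicate 2 or 3 was left out, with adjusted p up to 0.314 over all alternatives. It was also lost with no further normalization and with median scaling.

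**Figure D4:**
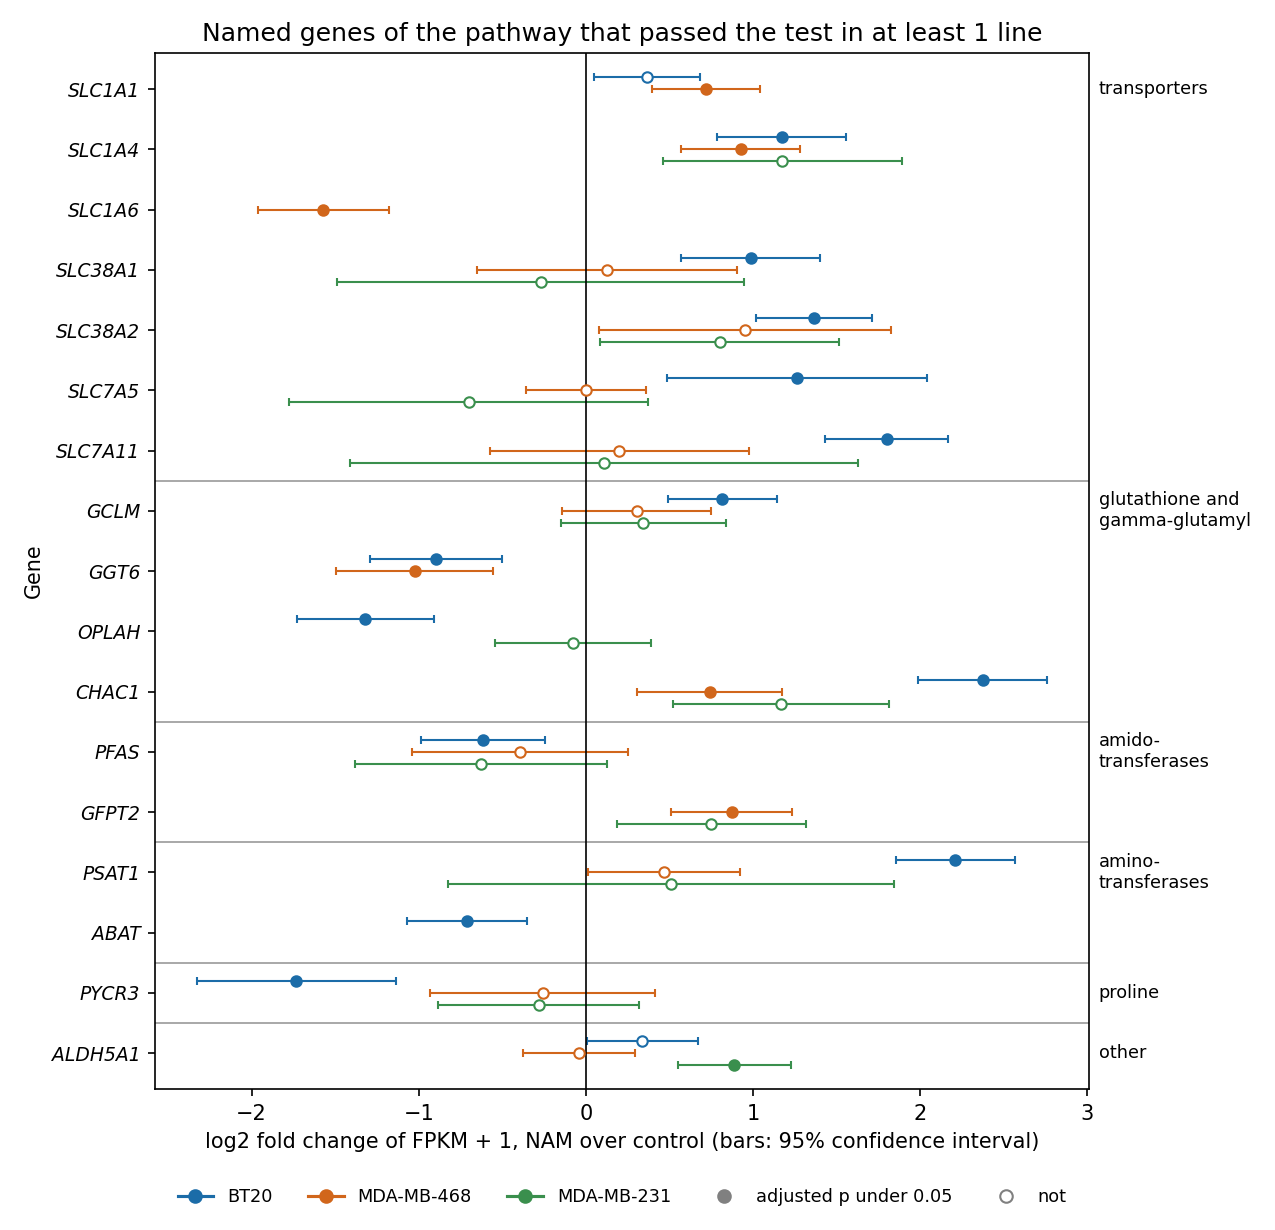
Log2 fold change of FPKM + 1, NAM over control, with 95% confidence intervals from limma, for the named pathway genes beside the 9 enzymes, with filled points where the test was passed. SLC7A11, PSAT1 and CHAC1 stood near 2 in BT20, and SLC1A6 was tested in MDA-MB-468 alone, at -1.57.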

How the data were processed

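RNA of 3 lines was sequenced in 18 libraries. Per the labels and methods, the authors trimmed reads with cutadapt 2.8, aligned them with TopHat2 2.1.1 to GRCh38.p13, counted genes with HTSeq 0.11.3 and deposited FPKM values. The strand setting of the counting is not given in the sources used here. Genes with at least 1 FPKM in 3 libraries of a fit were kept, log2(FPKM + 1) was quantile-normalized and tested with limma 3.58.1 (R 4.3.3) and Benjamini-Hochberg adjustment over all genes tested. NAM was compared with control within each line (6 libraries), controls between lines (9 libraries), and the average and the interaction over 18 libraries. These are not counts, so a count test was not the main result. Whole reads were recovered from the FPKM steps to a tolerance of 0.01 reads, and limma-voom on them was an alternative. Other alternatives were a pseudocount of 0.1, no further normalization, median scaling, no filter, limma with trend and robust on, the replicate block, a fit of all 18 libraries, leaving out each library, and leaving out both replicate 1 libraries of both DMEM lines, the last chosen after seeing the data.

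Deviations of same-numbered NAM and control libraries correlated at r = 0.707, 0.620 and 0.114 in MDA-MB-468. For MDA-MB-231 the values were 0.749, 0.641 and 0.737, and for BT20 0.031, -0.096 and 0.128. NAM replicate 2 with control replicate 3 had r = 0.429 in MDA-MB-468, and NAM replicate 3 with control replicate 2 had 0.327. For MDA-MB-231 these were 0.485 and 0.728. The values set replicate 1 apart, but do not settle whether replicates 2 and 3 pair by number. The replicate block took NAM and control libraries of the same number as paired in every line, BT20 included. The blocked average and interaction thus rest partly on a BT20 pairing that these values do not show. The main fits had no block. All 9 enzymes are named, with at most 4 risen and 4 fallen genes of each pathway list in each line. SLC38A1 and GFPT2 outside MDA-MB-468 were named after their values were seen. NADSYN1, CTPS1, GMPS and CAD, and CHAC1 and PFAS in MDA-MB-231, are also named outside that rule. A few genes of the lists enter the counts but are not reported here by name. The members and lists were chosen with earlier results of these data known. Depth sets the precision of low genes such as GLS2. The models were tested on simulated data.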

Additional observations from a re-analysis of the deposited data

Results flagged for a closer look

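The NAM effect on GPT2 differed between the lines by a test of the difference itself, with an adjusted p of 0.0404 for the line-by-NAM interaction in limma. Its log2 fold change was 1.06 in BT20, -0.13 in MDA-MB-231 and -0.10 in MDA-MB-468, with NAM above control without overlap in BT20 and overlapping groups in the other lines. The call was lost in 20 of 26 alternatives, among them a pseudocount of 0.1, no further normalization, median scaling, no filter and limma-voom.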

How the results depend on the processing

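Counts of enzymes called moved with the processing. The share of all genes called moved too, with the replicate block from 8.99% to 29.7% in MDA-MB-468 and from 1.92% to 24.0% in MDA-MB-231. For fits that leave out 1 library this share is not given here. The counts below therefore describe the processing and not the enzymes alone. In BT20, 3 were called, and 1 to 4 when 1 library was left out. The MDA-MB-468 count was 2, 0 to 1 when 1 library was left out, 1 with a pseudocount of 0.1, median scaling or limma-voom, and 4 with the replicate block. In MDA-MB-231, 0 were called, and 1 with the block or without both replicate 1 libraries. Between MDA-MB-231 and BT20 controls 5 were called, and 3 to 6 when 1 library was left out. The interaction was called for 1, for 0 to 2 when 1 library was left out, for 0 with a pseudocount of 0.1, no further normalization, median scaling, no filter or limma-voom, for 3 with the block and for 2 without the replicate 1 libraries. The average was called for 2, and for 4 with the block. In BT20, where the numbers do not pair the libraries, the block left 3 called.

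Directions turned only in values that were not called with all libraries. Leaving out 1 library gave -0.25 to 0.053 for GOT1 and -0.11 to 0.13 for OAT in BT20, and -0.021 to 0.094 for GLUD1 in MDA-MB-468. For MDA-MB-231 it gave -0.16 to 0.10 for GLUL, -0.23 to 0.26 for GLUD1, -0.48 to 0.052 for GPT2, -0.21 to 0.30 for GFPT1 and -0.23 to 0.23 for PYCR1. Between MDA-MB-231 and BT20 controls it gave -0.23 to 0.27 for GPT2 and -0.065 to 0.36 for PYCR1, and in MDA-MB-231 over MDA-MB-468 controls -0.0072 to 0.38 for GLUD1 and -0.21 to 0.10 for GFPT1. For the average it gave -0.013 to 0.15 for GLUD1 and -0.071 to 0.050 for GOT1. OAT in BT20 was -0.045 without further normalization, -0.074 with median scaling and -0.043 with limma-voom. Median scaling gave -0.011 for GLUL, -0.061 for GLUD1 and -0.049 for GFPT1 in MDA-MB-231, 0.024 for GOT2 in MDA-MB-468 over BT20, 0.027 for GPT2 in MDA-MB-231 over BT20 and -0.015 for the average of GLUD1. GLUD1 in MDA-MB-231 was -0.00107 without further normalization and GFPT1 there was -0.000447 with a pseudocount of 0.1. Without the replicate 1 libraries GLUL was -0.15 and PYCR1 -0.32 in MDA-MB-231, GPT2 0.28 in MDA-MB-231 over BT20, GFPT1 0.18 in MDA-MB-231 over MDA-MB-468, and the average of GOT1 0.023. The cause was not tested. Depth limits GLS2 in MDA-MB-231.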
